A study of Bos taurus with 28 samples.

Results

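AMPH, PCDH9, CADPS2, FSD1 and CLINT1 are 5 genes of vesicle traffic, cell adhesion and the microtubule cytoskeleton that were followed in the bovine uterus, out of 24596 gene IDs listed for each library. They were taken by Ensembl ID. AMPH, PCDH9, CADPS2 and FSD1 were picked for their difference between the 2 inseminated treatments, and CLINT1 for its difference between one inseminated treatment and the controls. Their values in those comparisons are therefore given as a description, with no test. All 5 genes had counts in all 28 heifers and all 5 passed the filter on low counts, as did 14793 IDs in the comparison of the inseminated treatments.

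The study asked whether sperm of bulls that differ in field fertility change gene expression in the uterus. RNA-seq was carried out on 1 postmortem uterine biopsy of each of 28 nulliparous heifers. Of these, 10 received frozen-thawed semen from high-fertility Holstein-Friesian bulls (HF), 10 received semen from low-fertility bulls (LF) and 8 were not inseminated (CTRL), so that CTRL heifers differ from both other treatments in the insemination itself as well as in the sperm. Tissue was taken 12 h after insemination from the intercaruncular area of the horn on the side of ovulation. Estrus was synchronized in all heifers with progesterone, gonadotrophin-releasing hormone and prostaglandin F2 alpha. Each inseminated treatment used 5 bulls with 2 heifers per bull, 1 in each of 2 study replicates, and fertility is a property of the bull, so 5 bulls stand against 5. The sample labels call all heifers Holstein-Friesian, whereas the animal list of the study gives crosses. By that list HF held 4 Charolais, 4 Limousin and 2 Belgian blue crosses, LF held 5 Charolais, 3 Limousin, 1 Aberdeen angus and 1 Simmental cross, and CTRL held 4 Limousin crosses and 1 each of Charolais, Aberdeen angus, Simmental and Saler. The list was used here, with the bull and the study replicate from the same list.

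Amphiphysin, the product of AMPH, bends membrane and brings dynamin and clathrin together at sites of endocytosis, and is best known from nerve terminals. CLINT1, also called epsinR, binds clathrin and the adaptor AP-1 on vesicles that move between the trans-Golgi network and endosomes. CADPS2 primes dense-core vesicles for calcium-triggered release. PCDH9 is a non-clustered protocadherin, a calcium-dependent adhesion molecule studied mostly in brain. FSD1 carries fibronectin type III and SPRY domains and binds microtubules. In a uterine biopsy, RNA of luminal and glandular epithelium, stroma, vessels, leukocytes, nerve fibres and smooth muscle is measured together, so a larger share of one cell type and more RNA per cell of that type cannot be told apart.

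The libraries held 14872812 to 25633259 counts in total (median 19315997.5). Counts of a gene were 170 to 2338 for AMPH, 1417 to 3075 for CLINT1, 231 to 675 for CADPS2, 44 to 197 for FSD1 and 14 to 168 for PCDH9, so the last gene had the least precise values. No 2 heifers of a treatment agreed within sampling noise (lowest chi-square per degree of freedom 19.3 over 118 pairs). Levels are given as CPM, the counts of a gene relative to the normalized library total, after one TMM normalization over all heifers. Such levels are not scaled to gene length and are compared here only between heifers, never between genes.

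AMPH, PCDH9 and FSD1 were higher, and CADPS2 was lower, in HF heifers than in LF heifers. AMPH showed the widest spread of the 5 genes. In HF heifers AMPH was 21.0 CPM at the lowest, 64.3 at the median and 125.5 at the highest, against 7.97, 19.3 and 52.9 CPM in LF heifers and 11.4, 28.4 and 54.5 CPM in CTRL heifers. The groups overlapped, with 7 of 10 HF heifers above the highest LF heifer and all 10 above the LF median (1.86% of genes tested). Mean AMPH levels were 69.5 ± 38.2 CPM in HF (SD, n = 10), 21.6 ± 13.1 CPM in LF (n = 10) and 30.8 ± 15.2 CPM in CTRL (n = 8). The HF level was 3.18-fold that of LF, a log2 fold change of 1.67 (SE 0.36).

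PCDH9 was 2.27, 4.60 and 6.90 CPM at the lowest, median and highest HF heifer, 0.796, 2.08 and 2.61 CPM in LF and 1.46, 1.89 and 3.76 CPM in CTRL. In this gene 8 of 10 HF heifers lay above the highest LF heifer and all 10 above the LF median (1.86% of genes tested). Its means were 4.55 ± 1.82 CPM in HF, 1.98 ± 0.571 CPM in LF and 2.40 ± 0.999 CPM in CTRL, and the HF-to-LF log2 fold change was 1.18 (SE 0.25).

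FSD1 was the gene in which the 2 treatments did not overlap at all. Its HF levels ran from 4.87 through a median of 6.03 to 12.6 CPM, and its LF levels from 2.39 through 4.03 to 4.77 CPM. All 10 HF heifers therefore stood above all 10 LF heifers, but the lowest HF and the highest LF heifer differed by little. Of the 14793 genes tested, 1 (0.00676%) had such a separation in this direction, and that gene was FSD1, which was picked in this comparison. CTRL heifers, at 2.49, 3.73 and 6.51 CPM, overlapped both treatments. The means were 6.94 ± 2.43 CPM in HF, 3.88 ± 0.807 CPM in LF and 3.97 ± 1.37 CPM in CTRL, and the HF-to-LF log2 fold change was 0.83 (SE 0.19).

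CADPS2 went the other way by a smaller amount. It was 17.1, 21.0 and 23.5 CPM at the lowest, median and highest HF heifer and 21.8, 25.5 and 30.9 CPM in LF, and 8 of 10 HF heifers lay below the lowest LF heifer and all 10 below the LF median (1.43% of genes tested). CTRL heifers spanned both ranges, at 14.4, 20.5 and 31.0 CPM. The means were 20.6 ± 1.87 CPM in HF, 26.3 ± 3.33 CPM in LF and 21.1 ± 6.15 CPM in CTRL, and the HF-to-LF log2 fold change was -0.36 (SE 0.09).

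CLINT1 varied little among heifers of a treatment, with a coefficient of variation of 7.27% in HF, 15.2% in LF and 7.30% in CTRL. Its levels were 90.4, 106.3 and 118.5 CPM in HF, 82.8, 116.3 and 149.6 CPM in LF and 116.8, 128.7 and 141.1 CPM in CTRL. Of the HF heifers, 9 of 10 lay below the lowest CTRL heifer and all 10 below the CTRL median (3.76% of genes tested), whereas the LF range reached past the HF and CTRL ranges at both ends. Means were 104.9 ± 7.63 CPM for HF, 116.3 ± 17.6 CPM for LF and 128.0 ± 9.35 CPM for CTRL, and the HF-to-CTRL log2 fold change was -0.29 (SE 0.07).

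**Figure D1:**
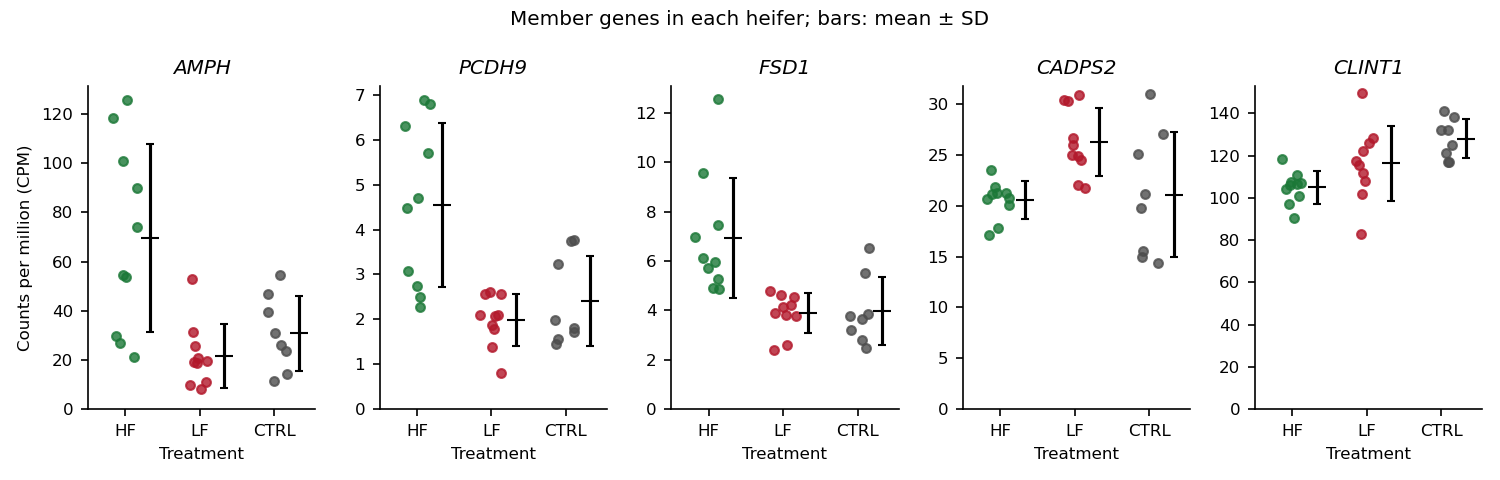
Level of each of the 5 genes (y axis, CPM, from 0) in each heifer (points) of the HF, LF and CTRL treatments (x axis), with the mean and SD beside each group. The HF points of FSD1 (4.87 CPM and above) do not overlap the LF points (4.77 CPM and below), and the HF mean of AMPH is 69.5 CPM against 21.6 CPM in LF.

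Across all genes, the edgeR quasi-likelihood test, set as the main test, called 0 of 14793 genes between HF and LF at an adjusted p under 0.05, and 1171 genes (7.92%) had an unadjusted p under 0.05. DESeq2, an alternative, called 27 of 16664 genes (0.162%), of which 13 (0.0780%) were higher and 14 (0.0840%) lower in HF. AMPH, PCDH9 and FSD1 were among the first and CADPS2 was among the second. Since these 4 genes were picked in this comparison, nothing is read from their presence there. CLINT1 was not picked in it. Its HF-to-LF log2 fold change was -0.16 (SE 0.09, 95% interval -0.33 to 0.01) and did not pass (edgeR adjusted p = 0.663, DESeq2 adjusted p = 0.600), with 9 of 10 HF heifers below the LF median. CLINT1 was picked for low HF levels against CTRL, and the same HF heifers enter this test.

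In the comparison of HF with CTRL, AMPH was 2.26-fold, PCDH9 1.89-fold and FSD1 1.75-fold higher in HF, and CADPS2 was nearly level. For these 4 genes this comparison is a test, but it uses the HF heifers in which they were picked. edgeR called 0 of 14885 genes, and 1155 (7.76%) were higher and 1231 (8.27%) lower at an unadjusted p under 0.05. DESeq2 called 328 of 15514 (2.11%), with 162 (1.04%) higher and 166 (1.07%) lower in HF.

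AMPH had a log2 fold change of 1.17 (SE 0.37), with an edgeR adjusted p of 0.165 and a DESeq2 adjusted p of 0.0517. It passed in DESeq2 with the study replicate as a covariate (adjusted p = 0.0311) and with the mean of epithelium markers as a covariate (0.00199), which makes 2 of 8 DESeq2 settings. Over all genes, DESeq2 called 322 and 570 in these settings, in that order. For PCDH9 the log2 fold change was 0.92 (SE 0.28), with adjusted p of 0.165 in edgeR and 0.0528 in DESeq2. Each HF heifer had more PCDH9 than the median CTRL heifer. The same held for FSD1, whose log2 fold change was 0.81 (SE 0.23). Such a pattern was found in 4.31% of all genes tested.

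FSD1 was past the threshold in DESeq2 (adjusted p = 0.0306) and not in edgeR (adjusted p = 0.152). The DESeq2 call held in 9 of the 18 fits that each left out 1 heifer. It was lost without CTRL1, CTRL3, CTRL4, CTRL5, CTRL8, HF2, HF6, HF9 or HF10, where its adjusted p reached 0.0864. It was also lost with breed (adjusted p = 0.0934), the mean of smooth muscle markers (0.103) or the mean of stroma markers (0.154) as a covariate.

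CADPS2 differed by a log2 fold change of -0.04 between HF and CTRL (SE 0.14, 95% interval -0.31 to 0.24, edgeR adjusted p = 0.922, DESeq2 adjusted p = 0.896). Its sign turned in several alternative fits. The interval leaves room for a change in either direction.

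Between LF and CTRL none of the 5 genes passed either test. edgeR called 0 of 14849 genes, with 839 (5.65%) at an unadjusted p under 0.05, and DESeq2 called 2 of 19179 (0.0104%). CADPS2 had the smallest p of the 5 genes, with a log2 fold change of 0.32 (SE 0.15, 95% interval 0.02 to 0.62, edgeR adjusted p = 0.874, DESeq2 adjusted p = 0.802). All 10 LF heifers had more CADPS2 than the CTRL median, as was the case for 1.06% of genes tested. AMPH had a log2 fold change of -0.51 (SE 0.35, edgeR adjusted p = 0.879), and the 95% interval of -1.19 to 0.18 does not separate a lower LF level from none.

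The other 3 genes lay closer to 0. PCDH9 differed by -0.27 (SE 0.26), CLINT1 by -0.13 (SE 0.10) and FSD1 by -0.03 (SE 0.21) on the log2 scale, at edgeR adjusted p of 0.905, 0.885 and 0.985. Single heifers moved several of these values. PCDH9 was at -0.15 without CTRL2, -0.15 without CTRL3 and -0.18 without LF7, AMPH was at -0.34 without CTRL6, and FSD1 ran from -0.10 to 0.11. AMPH, PCDH9, CADPS2 and FSD1 were picked with these LF heifers, so the comparison is not independent of the choice.

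**Figure D2:**
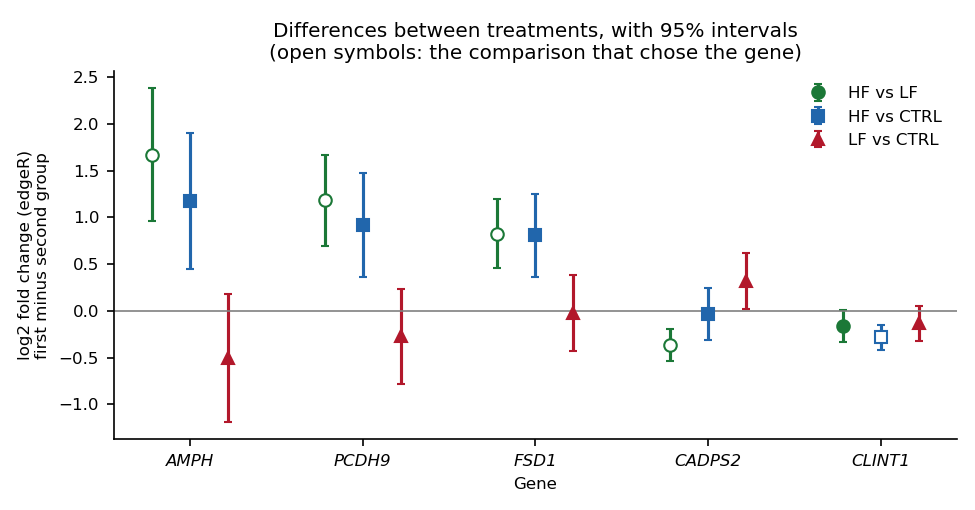
Log2 fold change of each gene (y axis, edgeR, first named treatment minus the second) in the 3 comparisons, with bars for the 95% interval and open symbols where the gene was picked in that comparison. AMPH, PCDH9 and FSD1 lie above 0 in HF against both LF (1.67, 1.18 and 0.83) and CTRL (1.17, 0.92 and 0.81).

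The bulls allow the HF and LF levels to be set out in another way, with the 2 heifers of a bull side by side. For AMPH the means of the 5 HF bulls ran from 42.2 to 99.8 CPM and those of the 5 LF bulls from 8.82 to 36.2 CPM. Bull means of PCDH9 were 3.49 to 5.40 CPM in HF and 1.44 to 2.59 CPM in LF, and those of FSD1 were 5.41 to 9.14 CPM and 3.57 to 4.41 CPM. All 5 HF bulls thus stood above all 5 LF bulls in these 3 genes, as they did in 1.26% of genes tested. For CADPS2, all 5 HF bulls (19.2 to 21.0 CPM) stood below all 5 LF bulls (23.3 to 28.8 CPM), as in 0.872% of genes tested. These counts use the comparison in which the genes were picked.

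When counts were summed over the heifers of a bull, the edgeR log2 fold changes were 1.68 for AMPH (SE 0.35), 1.19 for PCDH9 (SE 0.20), 0.84 for FSD1 (SE 0.17) and -0.34 for CADPS2 (SE 0.09).

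Heifers of 1 bull could differ widely. The heifers of bull 10 had 27.0 and 118.4 CPM of AMPH, a 4.38-fold difference, and those of bull 7 had 89.9 and 21.0 CPM. For both bulls 1 heifer lay within the LF range of AMPH and the other above it. For PCDH9 the largest difference within a bull was 2.72-fold, also in bull 7, for FSD1 2.21-fold in bull 9, and for CADPS2 1.32-fold in bull 9.

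A test that the rule did not use asked whether bulls of one treatment differ. With 2 heifers per bull none of the 5 genes passed over bulls within treatment (F-test in edgeR, adjusted p = 1, and likelihood ratio test in DESeq2, adjusted p = 1, for each). edgeR called 0 of 14793 genes (132, or 0.892%, at an unadjusted p under 0.05) and DESeq2 called 11 of 17768 (0.0619%). AMPH had the smallest unadjusted p of the 5 genes in this test, 0.288 by edgeR.

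**Figure D3:**
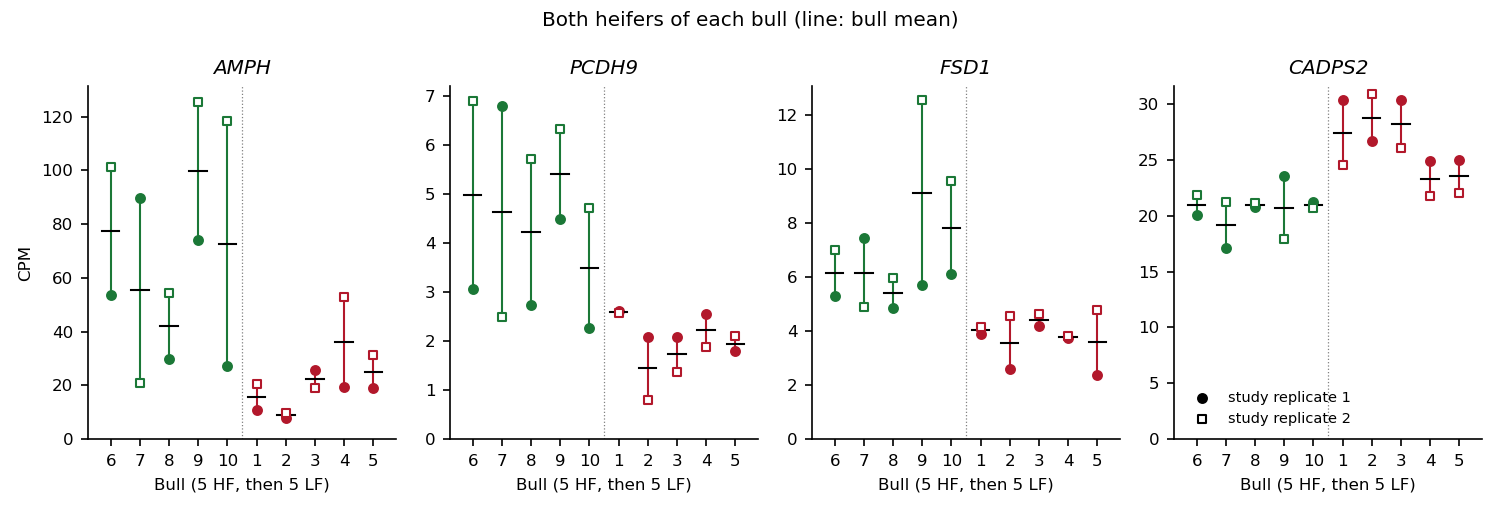
Levels of 4 genes (y axis, CPM, from 0) in both heifers of each of the 10 bulls (x axis), with circles for study replicate 1, squares for study replicate 2 and a black line at the bull mean. For AMPH the heifers of bull 10 had 27.0 and 118.4 CPM, while for CADPS2 no bull had heifers more than 1.32-fold apart.

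The study replicate and the breed of the heifer were not used to pick the genes. AMPH was higher in study replicate 2 in each treatment. Its means in replicates 1 and 2 were 54.9 and 84.1 CPM in HF, 16.6 and 26.7 CPM in LF and 22.8 and 38.9 CPM in CTRL, a log2 fold change of 0.69 with treatment in the fit (SE 0.27, 95% interval 0.15 to 1.22). This did not pass over all genes (edgeR adjusted p = 0.999, DESeq2 adjusted p = 0.878). The other genes differed by at most 0.26 on the log2 scale (FSD1, SE 0.16), at adjusted p of 0.999 in each tool. edgeR called 2 of 15163 genes (0.0132%) between the study replicates, with 3.35% at an unadjusted p under 0.05, and DESeq2 6 of 16435 (0.0365%).

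Limousin crosses had more AMPH than Charolais crosses, at a log2 fold change of 0.63 (SE 0.35, 95% interval -0.05 to 1.31), which did not pass (edgeR adjusted p = 0.700, DESeq2 adjusted p = 0.649). The interval includes 0, and CTRL held 1 Charolais cross only. PCDH9 differed by 0.27 (SE 0.25), FSD1 by 0.05 (SE 0.22), CLINT1 by 0.04 (SE 0.08) and CADPS2 by -0.03 (SE 0.12), with edgeR adjusted p of 0.700 to 0.931. edgeR called 0 of 14825 genes (952, or 6.42%, at an unadjusted p under 0.05) and DESeq2 1 of 15912 (0.00628%).

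Within each study replicate, and within Limousin and Charolais crosses, the HF-to-LF differences had the same direction as in the whole. AMPH, PCDH9, FSD1 and CADPS2 were picked over these same heifers, so the shared direction is no separate evidence. In study replicates 1 and 2 alone, the log2 fold change of AMPH was 1.72 and 1.64, that of FSD1 0.79 and 0.85, and that of CADPS2 -0.42 and -0.30. PCDH9 was the least even, with 0.79 in the first and 1.56 in the second. A test of the difference between the study replicates, chosen after seeing the data, gave 0.77 for PCDH9 (SE 0.49, 95% interval -0.19 to 1.73, edgeR and DESeq2 adjusted p = 1), and edgeR called 0 of 14793 genes in it (367, or 2.48%, at an unadjusted p under 0.05). DESeq2 also called 0, of 19196 (584 at an unadjusted p under 0.05).

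In Limousin crosses alone (4 HF and 3 LF heifers) the log2 fold changes were 1.52 for AMPH, 1.52 for PCDH9, 1.05 for FSD1 and -0.16 for CADPS2 (SE 0.16). In Charolais crosses alone (4 HF and 5 LF) they were 1.67, 0.70, 0.65 and -0.47 in the same order. The difference between the breeds was not tested, and the genes were picked over heifers that include these. The value of CADPS2 in Limousin crosses was no larger than its SE.

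Among HF heifers, high AMPH, PCDH9 and FSD1 tended to come together. HF9, HF10, HF6 and HF2, each of a different bull, held the 4 highest levels of AMPH (125.5, 118.4, 101.1 and 89.9 CPM) and also the 4 highest of FSD1 (12.6, 9.57, 6.99 and 7.44 CPM). HF6, HF2 and HF9 held the 3 highest of PCDH9 (6.90, 6.79 and 6.32 CPM). HF7, HF5 and HF3 had the lowest AMPH (21.0, 27.0 and 29.9 CPM) and the lowest PCDH9 (2.49, 2.27 and 2.74 CPM).

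Across all 28 heifers, after the mean of each treatment was subtracted, log2 CPM of AMPH and FSD1 correlated at r = 0.53 (rho = 0.57), and 2.78% of all genes had an r with AMPH at least as far from 0. By the same measure, with the first gene named as the reference, AMPH and PCDH9 correlated at r = 0.40 (13.8% of genes), AMPH and CADPS2 at r = -0.42 (11.2%) and PCDH9 and FSD1 at r = 0.34 (39.9%). These are descriptions over heifers that share treatments, bulls and study replicates.

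The relation of AMPH and PCDH9 was uneven between treatments, with r = 0.87 over the 10 HF heifers, 0.23 over the 10 LF heifers and -0.17 over the 8 CTRL heifers. For AMPH and FSD1 it was 0.79, 0.28 and 0.42. The differences between treatments were not tested. For CLINT1 the sign also differed between treatments with PCDH9 and CADPS2, which was not tested either. With PCDH9 its r was 0.00 over all heifers and -0.13 in HF, 0.46 in LF and -0.91 in CTRL. With CADPS2 it was -0.02 over all and 0.72, -0.23 and -0.09 in the same order. With FSD1 it was -0.26 over all (50.3% of genes at least as far from 0) and -0.62, -0.06 and -0.35, and with AMPH -0.04 over all and within 0.17 of 0 in each treatment.

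**Figure D4:**
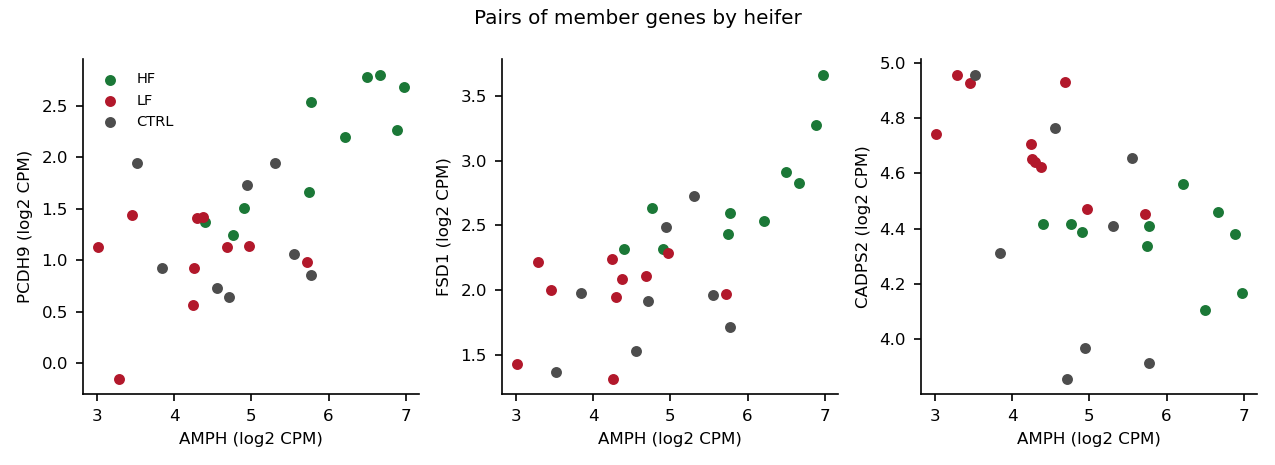
Log2 CPM of PCDH9, FSD1 and CADPS2 (y axes) against that of AMPH (x axis) in the 28 heifers, coloured by treatment. In HF heifers AMPH and PCDH9 lie close to a line (r = 0.87), while LF and CTRL heifers do not (r = 0.23 and -0.17).

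The neural associations of these genes made nerve fibres one tissue to look for. Only 1522 of the IDs could be named here, so marker lists are incomplete. Of 19 neuron markers, 2 had a name, UCHL1, a neuronal deubiquitinase, and STMN2, a regulator of neurite microtubules, and none of 12 Schwann cell markers had one. The mean log2 CPM of UCHL1 and STMN2 had a median of 3.05 in HF, 2.66 in LF and 2.81 in CTRL. Its maxima were 5.47, 3.67 and 3.62. Its correlation with AMPH, PCDH9 and FSD1 after removing treatment means was -0.20, -0.17 and -0.01, and with CADPS2 0.48 (14.7% of genes at least as far from 0). With 2 markers, these values neither bear out nor set aside the name neural for the group.

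UCHL1 itself was called higher in HF than CTRL by DESeq2 (adjusted p = 0.00199) and not by edgeR (adjusted p = 0.152). It was 69.6 CPM in HF7 and 3.98 to 5.84 CPM in the other 9 HF heifers, against 0.873 to 4.13 CPM in CTRL. HF7 had the lowest AMPH level of all HF heifers. DESeq2 replaces such outlying counts, and its difference was 1.94-fold (log2 fold change 0.96) where that of edgeR was 4.71-fold (log2 fold change 2.24).

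Epithelial markers moved with several of the 5 genes. Of 14 epithelium markers, 2 had a name, KRT8, a keratin of simple epithelia, and ESRP1, an epithelial splicing regulator. The mean log2 CPM of both was 5.79 to 7.06 in HF (median 6.35), 6.49 and above in LF (median 6.87) and 5.63 to 6.95 in CTRL (median 6.32). KRT8 was at 117.9 ± 33.1 CPM in HF and 166.9 ± 37.4 CPM in LF, a log2 fold change of -0.52 (SE 0.15, edgeR adjusted p = 0.450, DESeq2 adjusted p = 0.181), and ESRP1 at 62.9 CPM (38.2 to 95.3) and 78.0 CPM (56.0 to 88.0), a log2 fold change of -0.32 (SE 0.14, edgeR adjusted p = 0.571, DESeq2 adjusted p = 0.457).

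With treatment means removed, that marker mean correlated with AMPH at r = -0.75 (rho = -0.80, n = 28), and 0.211% of all genes had an r at least as far from 0. With CADPS2 it correlated at r = 0.73 (rho = 0.75, 0.323% of genes), with FSD1 at -0.52 (5.30%), with PCDH9 at -0.31 (33.9%) and with CLINT1 at 0.11 (76.5%). For AMPH the relation was seen in each treatment, at -0.86 in HF, -0.86 in LF and -0.70 in CTRL. For CADPS2 it was 0.60, 0.82 and 0.87. Without the 2 heifers farthest from the median of the marker mean the r was -0.70 for AMPH and 0.76 for CADPS2.

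With this marker mean as a covariate, a fit chosen after seeing the data, the HF-to-LF log2 fold changes were closer to 0. AMPH moved from 1.67 to 0.48 (SE 0.26), PCDH9 from 1.18 to 0.62 (SE 0.28), FSD1 from 0.83 to 0.45 (SE 0.21) and CADPS2 from -0.36 to -0.22 (SE 0.11). The number of genes called by DESeq2 went from 27 to 4, and none of the 5 genes was among the 4. The marker mean differed between HF and LF, at 6.38 ± 0.36 and 6.81 ± 0.16, so the fit gives to the covariate what the treatment and the markers share. Names came mostly from a table sorted by p in LF against CTRL, so named markers lean toward a difference there. KRT8 and ESRP1 were higher in LF than CTRL, at log2 fold changes of 0.58 (SE 0.21) and 0.30 (SE 0.12). How far the naming raised the LF marker mean, and with it the effect of the covariate, was not tested.

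Against CTRL, where the marker mean was 6.33 ± 0.42 and thus close to that of HF, the same covariate left the HF log2 fold changes at 1.17 for AMPH (SE 0.25), 0.88 for PCDH9 (SE 0.28) and 0.83 for FSD1 (SE 0.20). Their adjusted p in DESeq2 were then 0.00199, 0.0441 and 0.00527, and in edgeR 0.0756, 0.137 and 0.0769. Over all genes, DESeq2 called 570 in HF against CTRL with this covariate and 328 without it, so the lower values were not particular to these genes. Between LF and CTRL, the covariate turned the sign of AMPH to 0.32 (SE 0.34) and of CADPS2 to -0.07 (SE 0.13). The part of the epithelium in these values was not tested otherwise.

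**Figure D5:**
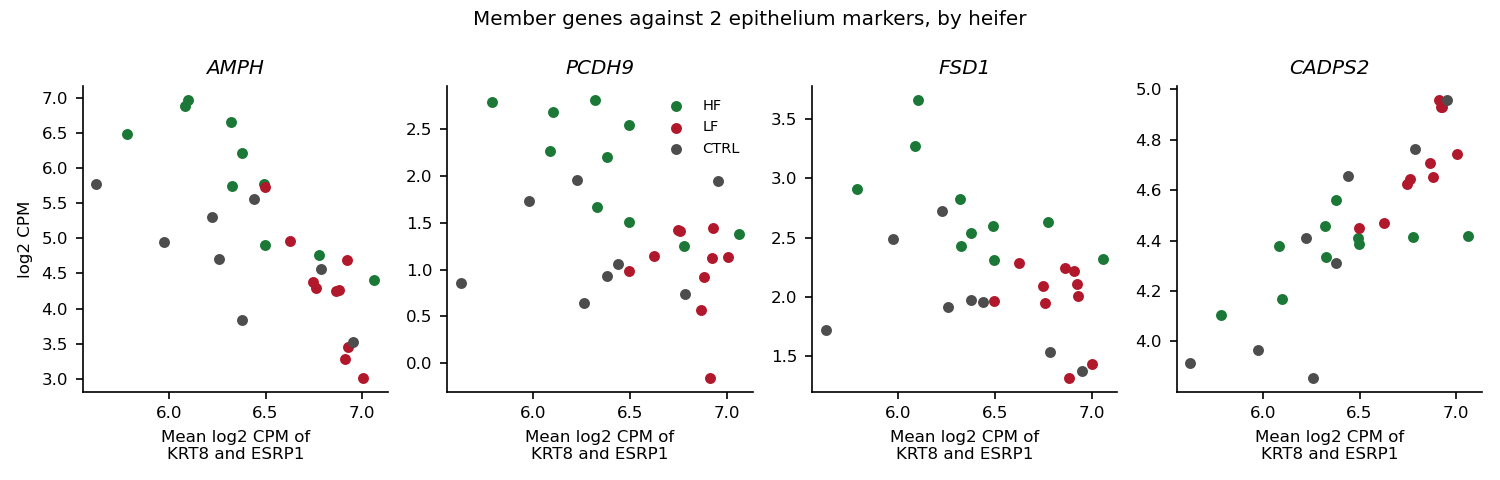
Log2 CPM of 4 genes (y axes) against the mean log2 CPM of KRT8 and ESRP1 (x axis) in the 28 heifers, coloured by treatment. AMPH is lower and CADPS2 higher where the markers are high, at r = -0.75 and 0.73 with treatment means removed.

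Smooth muscle markers varied widely among heifers, and none of the 7 that could be named was called by either tool in any treatment comparison. Since names came mostly from a table sorted by p in LF against CTRL, named markers lean toward a difference there. The mean of these 7 of 14 listed markers had medians of 5.48 in HF, 5.39 in LF and 6.87 in CTRL on the log2 CPM scale and ranged from 4.02 to 8.34 over all heifers. With it as a covariate the HF-to-LF log2 fold changes were 1.67, 1.18, 0.83 and -0.36 for AMPH, PCDH9, FSD1 and CADPS2. CADPS2 went from 0.32 to 0.17 in LF against CTRL (SE 0.14) and from -0.04 to -0.13 in HF against CTRL (SE 0.13), and PCDH9 from 0.92 to 0.78 in HF against CTRL. CADPS2 correlated with that mean at -0.49 (5.82% of genes at least as far from 0) and at -0.87 in CTRL heifers alone, the group in which CADPS2 varied most. MYOCD, the cofactor that drives smooth muscle genes, was 2.39 ± 2.24 CPM in HF, 3.79 ± 6.35 in LF and 11.7 ± 14.8 in CTRL. PLN, phospholamban, an inhibitor of the calcium pump of the sarcoplasmic reticulum, was 23.0 ± 15.3 CPM in HF, 20.5 ± 15.5 CPM in LF and 36.6 CPM in CTRL (13.1 to 71.1).

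Of 10 stroma markers, 2 were named. VIM, the intermediate filament of mesenchymal cells, was 2617 ± 313 CPM in HF and 1984 ± 345 CPM in CTRL, a log2 fold change of 0.40 (SE 0.12), called by DESeq2 (adjusted p = 0.0317) and not by edgeR (adjusted p = 0.158). HAND2, a transcription factor of uterine stroma, was 67.4 ± 23.8 CPM in HF and 66.3 ± 24.0 CPM in CTRL, a log2 fold change of 0.03 (SE 0.22, DESeq2 adjusted p = 0.981). In LF against CTRL the log2 fold change was 0.28 for VIM and -0.40 for HAND2, so the mean of both joins markers that went apart there. The mean of VIM and HAND2 correlated with FSD1 at r = 0.53 (17.4% of genes). With it as a covariate the HF-to-CTRL log2 fold change of FSD1 was 0.61 (SE 0.21), not past either test (edgeR adjusted p = 0.334, DESeq2 adjusted p = 0.154). Of 10 ciliated cell markers 4 were named and none was called by either tool. All 4 had a positive log2 fold change in HF against CTRL (median 0.57) and in LF against CTRL (median 0.67), and 1 of 4 did in HF against LF (median -0.10). Over all genes the medians were -0.02, 0.01 and -0.03 in the same order. Both comparisons with CTRL use the same CTRL heifers. These 4 markers, too, come from names that lean toward small p in LF against CTRL. Their mean correlated with AMPH at r = -0.52 and with CADPS2 at 0.52 (12.3% of genes at least as far from 0 for each). RSPH1, a radial spoke protein of cilia, was 12.5 ± 7.94 CPM in HF, 14.4 ± 6.99 in LF and 9.24 ± 3.02 in CTRL. CAPS was 91.9 ± 54.1, 104.2 ± 54.3 and 66.5 ± 21.5 CPM. No marker of endothelium (7 listed) or leukocytes (15 listed) was named here, so their part was not tested.

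The partners of the 5 genes were followed through lists from general knowledge, of which only the named genes could be counted. A name came mostly from a table sorted by p in LF against CTRL, so the counts lean toward genes with small p there. None of the listed genes was called by edgeR in any of the 3 treatment comparisons.

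Of the endocytic clathrin machinery around amphiphysin, 6 of 37 genes were named and DESeq2 called none in any comparison. Their median HF-to-LF log2 fold change was 0.05, beside -0.03 over all genes. EPS15, an endocytic scaffold, was 114.1 ± 11.6 CPM in HF and 101.8 ± 8.58 in LF, and EPN3, an epsin that helps bend membrane, 5.16 ± 1.94 and 7.16 ± 2.54 CPM.

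Of the genes for clathrin traffic at the trans-Golgi network and endosomes, where CLINT1 acts, 6 of 30 were named. DESeq2 called 1 lower in HF than LF and, in HF against CTRL, 1 higher and 1 lower. The median log2 fold change was -0.05 in both comparisons, beside -0.03 and -0.02 over all genes. TRAPPC9, a subunit of the TRAPP complex, which tethers vesicles, was 24.2 ± 2.65 CPM in HF and 32.8 ± 5.80 in LF (log2 fold change -0.45, SE 0.10, edgeR adjusted p = 0.357, DESeq2 adjusted p = 0.0216). GOLPH3, which binds Golgi membranes and links them to actin, was 136.8 ± 11.4 CPM in CTRL and 113.3 ± 7.11 in HF, called by DESeq2 (adjusted p = 0.00337), with an edgeR log2 fold change of -0.27 (SE 0.06, adjusted p = 0.132). Its LF level was close to that of HF, at 116.7 ± 11.5 CPM, and not called against CTRL (DESeq2 adjusted p = 0.640). STX10, a SNARE of the trans-Golgi network, was 44.6 ± 8.01 CPM in HF and 32.7 ± 5.06 in CTRL (log2 fold change 0.45, SE 0.12, edgeR adjusted p = 0.149, DESeq2 adjusted p = 0.0366). In LF, STX10 was at 41.0 ± 14.1 CPM. TRAPPC9 and GOLPH3 entered the list after the study had named them as changed in these samples, so their calls are not independent evidence.

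Of the genes for regulated secretion, the setting of CADPS2, 7 of 51 were named and DESeq2 called none. Their median HF-to-LF log2 fold change was 0.04. CADPS, the paralog of CADPS2 with the same role in vesicle priming, lay in the opposite direction, at 3.88 ± 3.54 CPM in HF, 0.994 ± 1.16 in LF and 2.94 ± 2.84 in CTRL. Its HF-to-LF log2 fold change of 1.95 (SE 0.72) did not pass (edgeR adjusted p = 0.496, DESeq2 adjusted p = 0.244), and the SD was near the mean in each treatment. SYTL1, a Rab27 effector, was 18.1 ± 4.33 CPM in HF and 21.6 ± 4.40 in LF.

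Of the cadherins and neural adhesion genes around PCDH9, 4 of 44 were named and 3 tested, and DESeq2 called none. PCDH7, another protocadherin, was 3.46 ± 2.15 CPM in HF, 4.12 ± 3.05 in LF and 8.60 ± 6.33 in CTRL. CTNND2, a catenin enriched in brain, was 1.21 ± 0.853, 0.863 ± 0.506 and 2.13 ± 2.67 CPM. Their HF means lay below the CTRL means, where that of PCDH9 lay above, and neither difference passed (DESeq2 adjusted p = 0.0882 and 0.468, edgeR adjusted p = 0.204 and 0.520). CDH2, the other gene tested, had a higher mean in HF than in CTRL, as PCDH9 did. It was 20.9 ± 7.36 CPM in HF, 19.4 ± 6.34 in LF and 14.0 ± 5.80 in CTRL. Its HF-to-CTRL log2 fold change of 0.58 (SE 0.25) did not pass either (edgeR adjusted p = 0.262, DESeq2 adjusted p = 0.195). The median HF-to-LF log2 fold change of the 3 was 0.10.

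Of the microtubule-associated genes around FSD1, 6 of 32 were named. DESeq2 called 0 between HF and LF and 1 lower in HF than CTRL, which was KIF5B, a kinesin heavy chain, at 104.8 ± 19.2 CPM in HF and 162.8 ± 61.6 in CTRL (log2 fold change -0.63, SE 0.16, edgeR adjusted p = 0.149, DESeq2 adjusted p = 0.0261). In LF, KIF5B was at 111.1 ± 38.2 CPM. The median HF-to-CTRL log2 fold change of the 6 was -0.53, beside -0.02 over all genes. In LF against CTRL it was -0.56, beside 0.01 over all genes, so a like shift was seen for both inseminated treatments. Both comparisons use the same CTRL heifers, so the medians cannot tell a shift in the inseminated heifers from one in CTRL. Named genes lean toward a difference against CTRL, so they are not like for like with all genes.

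The named genes whose levels were most like those of each member, by r over the 28 heifers with treatment means removed, differed from member to member. For AMPH they were LRTM2 (r = 0.72), LHFP (0.69) and DAPK2 (0.68), a calcium-dependent death-associated kinase, for PCDH9 they were PDGFD (0.69), a platelet-derived growth factor, IL4I1 (0.63) and ANKRD33B (0.62), and for FSD1 they were IGF2 (0.68), a growth factor, FABP7 (0.68), a fatty acid-binding protein, and LHFP (0.65). LHFP was thus among the 3 nearest of both AMPH and FSD1. For CADPS2 they were LY6E (0.84), RAB25 (0.82), a Rab of epithelial recycling endosomes, and VAV1 (0.77). For CLINT1 they were TWF1 (0.89), an actin monomer-binding protein, ABCE1 (0.87), a ribosome recycling factor, and RWDD4 (0.82). These were chosen from 1512 named genes of 15162, and for each member at least 1 gene with no name had a higher r. LRTM2 and DAPK2 had low levels, with means of 0.54 and 1.32 CPM, so their r rests on few counts. With a prior count of 0.5 in place of 2, the r of LRTM2 with AMPH was 0.69.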

How the data were processed

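Counts were deposited by the authors as whole reads per Ensembl gene, 1 table per heifer. Per the submitters' processing notes, STAR 2.6.1b and Subread 1.6.3 were used. The paper's methods name another STAR version and counts made by STAR itself, and this difference was not resolved. The paper also describes stranded mRNA libraries. Whether counting used strand was not given in any source read here. No exon lengths, biotypes or sequences were used. Gene names came from the study's tables, which name 1522 of 24596 IDs and lean toward genes with small p in comparisons with CTRL.

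The members and gene lists were chosen with earlier results of these data known. Genes named in the text were the 5 members, list genes called by edgeR or DESeq2 (otherwise the 2 with the smallest p in HF against LF), and the 3 named genes with the highest r to each member. STMN2 and HAND2, the other named markers of neurons and stroma, and CDH2 were added after their values were seen.

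The main test was edgeR's quasi-likelihood test (edgeR 4.0.16, R 4.3.3, TMM, a minimum count of 10, Benjamini-Hochberg adjustment over all genes, threshold 0.05) on the heifers of each pair of treatments. It called 0 genes in all 3 treatment comparisons. DESeq2 1.42.0 (Wald test, or a likelihood ratio test for bulls within treatment, no low-count filter before its own), which the study used, was an alternative. DESeq2 was first run with its filtering tuned to 0.05, and after that output was seen it was set to the package default of 0.1, as the plan had stated. Both gave the same calls of members. In all, 192 fits over 7 tests were made. The DESeq2 fits with covariates, without 1 heifer or with counts summed per bull, the fits within a breed, the test of the difference between study replicates, and the epithelium and stroma covariates were chosen after seeing the data. SE is the log2 fold change divided by the root of F, and intervals (95%) are normal intervals from that SE. Log2 CPM uses a prior count of 2. Heifers are separate animals, and 2 heifers share each bull.

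On simulated counts for 14793 genes in HF and LF, edgeR found 12 of the 67 genes that had been given a 1.5-fold difference, 36 of 67 given a 2-fold and 64 of 66 given a 4-fold one, and 4 of its 116 calls were false. The numbers for DESeq2 were 19, 43 and 65, and 18 of its 145 calls were false. Counts were drawn separately for each heifer from a negative binomial model with the dispersions that edgeR had estimated. That model held no shared bulls, breeds or tissue mix, so these numbers do not measure either tool on the real counts.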

Additional observations from a re-analysis of the deposited data

Results flagged for a closer look

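AMPH in LF heifers had 1 value apart from the others. LF9 was at 52.9 CPM, and its gap to the next heifer was 0.483 of the range of the group. This was 1 of 15 group and gene combinations examined, and chance flags about 1 in 20. Without LF9 the HF-to-LF log2 fold change of AMPH was 1.92.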

How the results depend on the processing

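Calls depended on the tool. In HF against LF, HF against CTRL and LF against CTRL, edgeR called 0 genes and DESeq2 27, 328 and 2. With its filtering tuned to 0.05 DESeq2 called 26, 315 and 2, without replacement of outlying counts 36, 342 and 4, with breed as a covariate 28, 97 and 5, with study replicate 23, 322 and 3, with the smooth muscle mean 42, 101 and 1, with the epithelium mean 4, 570 and 6 (edgeR 0, 1 and 0), and with the stroma mean 558, 84 and 24. With counts summed per bull DESeq2 called 223 in HF against LF. It called 6 genes between study replicates (edgeR 2), 1 between breeds and 11 between bulls. The cause of these differences was not tested. Leaving out 1 heifer gave DESeq2 counts of 7 to 155 (the highest without HF7), 95 to 865 (the highest without CTRL2) and 0 to 16. edgeR called 0 in all such fits except 91 without CTRL2 and 3 without CTRL6 in HF against CTRL.

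CADPS2 in HF against CTRL turned to a log2 fold change of 0.0037 with breed, 0.00065 in study replicate 2 alone, 0.0129 in Limousin crosses, 0.0497 with the stroma mean (0.0367 in DESeq2) and, without 1 heifer, ran from -0.107 to 0.0620 in edgeR and from -0.112 to 0.0517 in DESeq2. In LF against CTRL, FSD1 turned to 0.224 in study replicate 2 alone, 0.0316 with the smooth muscle mean (0.0292 in DESeq2), 0.0385 with the stroma mean (0.0320 in DESeq2), 0.294 with the epithelium mean (0.280 in DESeq2) and, without 1 heifer, ran from -0.103 to 0.112 in edgeR and from -0.105 to 0.113 in DESeq2. With the epithelium mean AMPH turned to 0.321 (0.316 in DESeq2) and CADPS2 to -0.0653 (-0.0759 in DESeq2).

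The replicate block turned CADPS2 in HF against CTRL to 0.0321 and left the count of calls at 0 in each comparison. Same-numbered heifers had an r over 0.1 in 5 of 10, 5 of 8 and 4 of 8 pairs, so the numbers do not pair the heifers. Counts of PCDH9 as low as 14 limit the precision of its lowest values. The planned restriction to protein-coding genes was not run.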
